A study of Mus musculus with 12 samples.

Results

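The windows described here are those the deposited table lists under a gene name that starts with Zfp and a number, the mouse symbols for zinc finger proteins. There are 403 such windows among 25507, under 402 of 25450 gene names, because Zfp91 is listed in 2 windows with the same values. The rule uses names only and no measured value. Of the 402 names, 399 were found by symbol in RefSeq for mouse build GRCm38.p6 (mm10), which gives the coordinates printed here. The 3 names without a match were Zfp966-2, Zfp967-2 and Zfp968-2, which had the same values in all 12 libraries.

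Chromatin was profiled by CUT&Tag, a method in which an antibody directs a transposase to cut and tag the DNA beside a mark, in the KPC1199 line, which derives from a mouse pancreatic ductal adenocarcinoma and is labelled with the strain C57BL/6. The groups were PD-L1 high cells given 10 ng/ml IFN-gamma, all cells given 10 ng/ml IFN-gamma without regard to PD-L1, and untreated cells without regard to PD-L1. Each of 4 marks was read in each of the 3 states by 1 library, so there is no replicate error, no p-value is given, and the data are those of 1 cell line. How the PD-L1 high cells were obtained and how long the cytokine was given are not stated in the labels.

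Most genes with Zfp names encode proteins with C2H2 zinc fingers, repeated modules that each grip a short stretch of DNA. A large share also carries a KRAB domain, which recruits the corepressor Trim28 and the H3K9 methyltransferase Setdb1 and thereby silences transposons and imprinted loci, and these genes lie in dense clusters that arose by tandem duplication. Other members differ in kind, such as the CCCH proteins of the Zfp36 family, which bind AU-rich elements in mRNA and promote its decay. H3K4me3 marks active promoters, H3K27Ac marks active promoters and enhancers, H3K27me3 is laid down by Polycomb repressive complex PRC2, and ubiquitinated H2A, called H2A119Ub in the labels, by PRC1.

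Upstream sequences of 3 members are shown as examples of marked states described here: Zfp36, with high H3K4me3 and a CG-rich promoter, Zfp385a, with high levels of both Polycomb marks, and Zfp710, with high H3K4me3 at a CG-poor promoter. Each run is the 250 bases before the annotated start, 5′ to 3′ on the gene's strand, taken from RefSeq for GRCm38.p6, and capitals mark each CG dinucleotide. The positions are chr7:28379229-28379478, minus strand, for Zfp36, chr15:103340087-103340336, minus strand, for Zfp385a, and chr7:80024564-80024813, plus strand, for Zfp710. All 3 stretches lie outside annotated genes. They hold 18, 19 and 2 CG dinucleotides.
Zfp36: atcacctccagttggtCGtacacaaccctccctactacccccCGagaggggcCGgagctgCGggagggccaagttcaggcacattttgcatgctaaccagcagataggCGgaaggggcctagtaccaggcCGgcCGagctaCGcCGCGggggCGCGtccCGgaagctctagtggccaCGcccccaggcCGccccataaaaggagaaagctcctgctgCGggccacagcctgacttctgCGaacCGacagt
Zfp385a: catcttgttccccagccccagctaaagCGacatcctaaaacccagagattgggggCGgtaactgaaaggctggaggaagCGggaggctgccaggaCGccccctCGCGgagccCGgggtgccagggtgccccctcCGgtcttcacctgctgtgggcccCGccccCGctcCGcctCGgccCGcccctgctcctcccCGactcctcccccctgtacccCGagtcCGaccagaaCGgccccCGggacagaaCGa
Zfp710: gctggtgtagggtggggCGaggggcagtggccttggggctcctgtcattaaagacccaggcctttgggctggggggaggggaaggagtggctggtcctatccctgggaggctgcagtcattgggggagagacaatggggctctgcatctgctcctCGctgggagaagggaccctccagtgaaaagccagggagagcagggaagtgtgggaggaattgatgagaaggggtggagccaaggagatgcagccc

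A second set shows letters that recur before Zfp genes, ACTACANTTCC, in capitals with 8 bases before and 21 after, each 5′ to 3′ on the strand of the match. The 6 genes are the members of highest H3K4me3 whose stretch overlaps no annotated gene, 1 for each of 5 chromosomal clusters and 1 outside clusters. Positions are chr4:49521134-49521173, minus strand, for Zfp189 (outside clusters), chr7:24112151-24112190, minus strand, for Zfp112, chr11:50931662-50931701, minus strand, for Zfp354b, chr7:27731336-27731375, plus strand, for Zfp60, chr13:67553159-67553198, plus strand, for Zfp748, and chr7:29768509-29768548, minus strand, for Zfp84.
Zfp189: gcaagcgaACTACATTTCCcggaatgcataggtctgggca
Zfp112: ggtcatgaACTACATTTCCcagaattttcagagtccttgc
Zfp354b: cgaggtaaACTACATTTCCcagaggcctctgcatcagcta
Zfp60: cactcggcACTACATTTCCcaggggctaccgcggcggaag
Zfp748: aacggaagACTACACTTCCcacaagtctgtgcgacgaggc
Zfp84: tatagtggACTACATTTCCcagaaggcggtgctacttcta

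Values are the authors' normalised signal, read here as normalised tags per window of 6000 bp. Summed over the windows, the H3K4me3 libraries held 7.096e+06 to 8.83e+06 tags, the H3K27Ac ones 2.04e+06 to 2.39e+06, the H3K27me3 ones 1.65e+06 to 2.12e+06 and the H2A119Ub ones 1.33e+06 to 1.56e+06. A single tag counted as 0.989 to 1.03 except in IFN-gamma treated H2A119Ub, not selected for PD-L1, where it counted as 1.32. Of markers used to check the cells, 6 of 7 epithelial genes had H3K4me3 at or above the median window, against 0 of 5 leukocyte, 2 of 3 fibroblast and 0 of 2 endothelial genes. None of these markers was at 0 in all 3 H3K4me3 libraries. Summed H3K4me3 over the epithelial list was 5766 tags in PD-L1 high, 5976 in all IFN-gamma treated and 4636 in untreated cells, over the leukocyte list 40.6, 36.3 and 65.2 tags, over the fibroblast list 520.4, 469.8 and 494 tags and over the endothelial list 21.8, 15.9 and 43.3 tags in the same order, and their part in the results was not tested.

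Zfp windows were rich in the marks of active promoters and poor in both Polycomb marks. H3K4me3, averaged over the 3 states, reached the table's median window (57.6 tags) in 328 of 403 Zfp windows, or 81.4% (95% exact binomial interval 77.2 to 85.1%, for counting error over windows only), against 50% of all windows. For H3K27Ac the share was 275 of 403 or 68.2% (63.4 to 72.8%) with a median window of 46.3 tags. Both Polycomb marks gave the opposite picture, with 161 windows or 39.95% (35.1 to 44.9%) for H3K27me3 and 168 or 41.7% (36.8 to 46.7%) for H2A119Ub, where the median window held 12.8 and 41.1 tags. These intervals take the windows as independent, although 182 Zfp genes lie in the clusters described below. They do not cover differences between libraries. Among protein-coding genes only, the shares were 82.2% of 393 coding Zfp windows against 55.1% of all 20785 coding windows for H3K4me3, 69.2% against 53.6% for H3K27Ac, 40.2% against 52.7% for H3K27me3 and 42.0% against 52.7% for H2A119Ub.

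The H3K4me3 at Zfp windows was widespread rather than extreme. The median Zfp window held 357 H3K4me3 tags with an interquartile range of 139 to 593, against 57.6 (4.30 to 538) over all windows. Only 38 Zfp windows (9.43%) lay in the top 10% of the table for H3K4me3, and 31 (7.69%) in the top 10% for H3K27Ac. Medians for the other marks were 70.6 tags at Zfp windows against 46.3 at all windows for H3K27Ac, 9.78 against 12.8 for H3K27me3, and 33.6 against 41.1 for H2A119Ub. The top 10% held 10 Zfp windows (2.48%) for H3K27me3 and 15 (3.72%) for H2A119Ub. Each share is a description of these libraries, with no test.

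**Figure D1:**
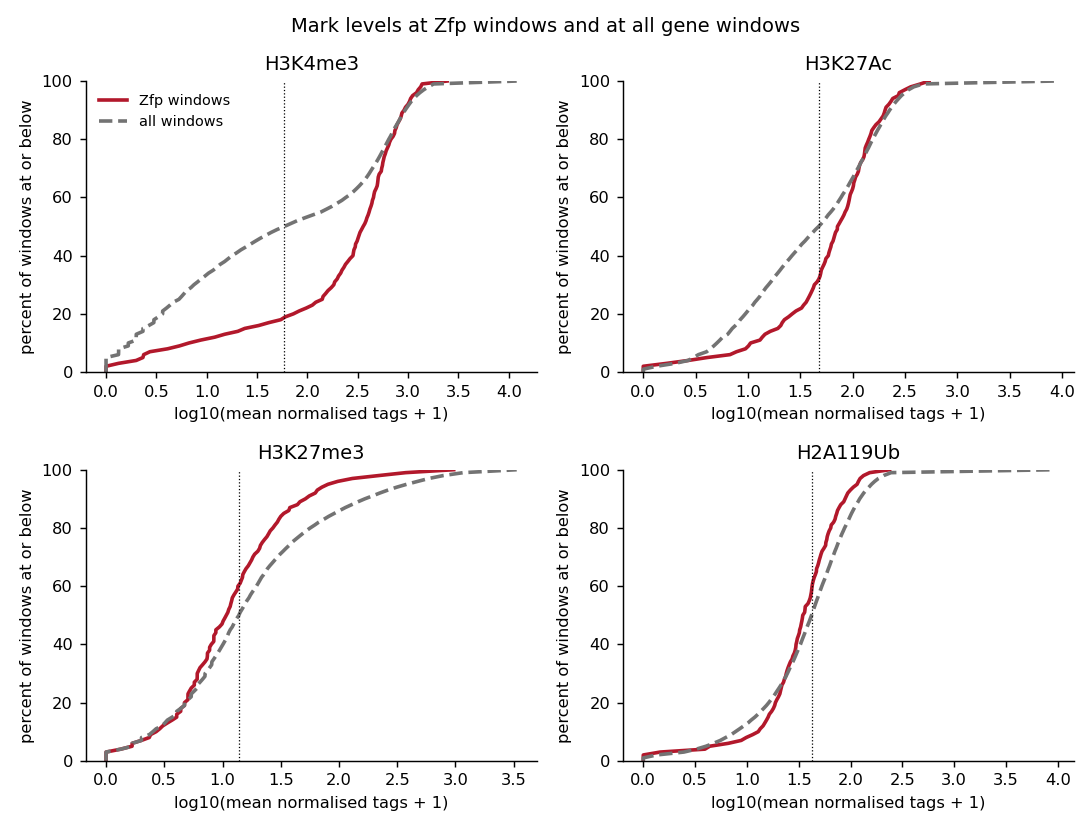
Cumulative share of windows (vertical axis, percent) by mean level over the 3 states (horizontal axis, log10 of normalised tags plus 1) for each mark, with the 403 Zfp windows as solid red lines, all 25507 windows as dashed grey lines and the median window as a dotted line. At the median window the Zfp curve lies to the right for H3K4me3, where 81.4% of Zfp windows reach it. For H3K27me3, where 39.95% do, it lies to the left. The curves cross towards the top for H3K4me3 and at low levels for H3K27me3.

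By combination of marks, 324 Zfp windows (80.4%) had H3K4me3 at or above the median window with H3K27me3 below the top 10%, against 47.1% of all windows. Another 4 (0.993% against 2.89%) combined such H3K4me3 with H3K27me3 in the top 10%, a pairing known as bivalent at developmental genes, and 6 (1.49% against 7.11%) had H3K27me3 in the top 10% without it. The remaining 69 (17.1% against 42.9%) had neither. Across Zfp windows the 2 active marks ranked together with a Spearman rho of 0.90 over 403 windows and the 2 Polycomb marks with 0.77, close to the 0.94 and 0.75 over all 25507 windows. Active and Polycomb marks also ranked together, less closely, with 0.50 for H3K4me3 and 0.58 for H3K27Ac with H2A119Ub, and 0.28 and 0.32 with H3K27me3. These correlations are over windows of the same libraries, are not independent replicates and are given as a description.

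Zfp687, a partner of Zmynd8 in a chromatin complex of human cells, had the most H3K4me3 of any Zfp gene, with 2633 normalised tags in PD-L1 high cells, 2691 in all IFN-gamma treated cells and 2005 in untreated cells. Its H3K27Ac was also the highest by the mean over states, at 588 tags in PD-L1 high cells, 609.6 in all IFN-gamma treated cells and 406 in untreated cells. It was followed in H3K4me3 by Zfp605 with 1745, 1809.6 and 1379 tags and Zfp526 with 1715, 1622 and 1523 tags in the same order of states. The untreated library was the lowest of the 3 for each. It was also the lowest in H3K4me3 summed over all windows, at 7.096e+06 tags against 8.83e+06 in PD-L1 high and 8.46e+06 in all IFN-gamma treated cells. No shift between libraries is removed from these values. Zfp91 came next in mean H3K27Ac and was above Zfp687 in both IFN-gamma states. It is an E3 ubiquitin ligase of noncanonical NF-kB signalling. Its H3K27Ac was 595 tags in PD-L1 high cells, 634 in all IFN-gamma treated cells and 364 in untreated cells. Zfp710, whose CG-poor promoter is shown above, had H3K4me3 of 1147 tags in PD-L1 high cells, 1016 in all IFN-gamma treated cells and 745 in untreated cells, with 8.05, 10.1 and 4.06 tags of H3K27me3 in that order.

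The 3 autosomal genes of the mRNA-decay family were high in H3K4me3. Zfp36, which encodes tristetraprolin, a brake on inflammatory transcripts, carried 1409 H3K4me3 tags in PD-L1 high cells, 1523 in all IFN-gamma treated cells and 819 in untreated cells. For Zfp36l1 the values were 1587 tags in PD-L1 high cells, 1403 in all IFN-gamma treated cells and 1119.6 in untreated cells, and for Zfp36l2 they were 1565 tags in PD-L1 high cells, 1440.2 in all IFN-gamma treated cells and 1026 in untreated cells. Untreated cells were the lowest for all 3 genes, as they were in H3K4me3 summed over all windows. The X-linked paralogue Zfp36l3, known from rodent placenta, stood apart with 0.99 tags in PD-L1 high cells, 1.99 in all IFN-gamma treated cells and 1.0 in untreated cells, which is at or below the limit of 3 tags that a count of 0 allows. H3K27me3 was below the top 10% at all 4 genes.

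Genes with known regulatory roles were spread over the range. Zfp335, known for its role in neurogenesis and for joining H3K4 methyltransferase complexes, had 1350.5 H3K4me3 tags in PD-L1 high cells, 1300.1 in all IFN-gamma treated cells and 1131 in untreated cells. Zfp503 and Zfp703, related developmental repressors, had 1379.7, 1338 and 938 tags and 1441, 1542 and 1087 tags in PD-L1 high, all IFN-gamma treated and untreated cells. Zfp143, the homologue of a human promoter activator, had 795, 739.9 and 560.0 tags in the same order. Zfp568, which represses a placental promoter of Igf2, had 805 tags in PD-L1 high cells, 793 in all IFN-gamma treated cells and 715 in untreated cells. The imprint-maintaining genes Zfp57 and Zfp445 were lower, with 386, 351 and 331 and 324, 327 and 305 tags in PD-L1 high, all IFN-gamma treated and untreated cells, and both lay above the median window. At the other end, Zfp42, the pluripotency marker also called Rex1, had 0 tags in PD-L1 high cells, 1.99 in all IFN-gamma treated cells and 4.48 in untreated cells, and the neural gene Zfp536 had 0.99, 0 and 1.99 tags in the same order. H3K27me3 was also near 0 at Zfp42, with 1.01, 0 and 2.03 tags, so its low H3K4me3 did not come with the Polycomb mark in these libraries.

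The 10 Zfp genes in the top 10% of H3K27me3 were Zfp423, Zfp385a, Zfp811, Zfp385c, Zfp593, Zfp580, Zfp804b, Zfp541, Zfp521 and Zfp185. Several are known for roles other than KRAB repression: Zfp423 commits cells to the fat lineage, Zfp521 acts in progenitor cells, Zfp541 is a chromatin factor of spermatocytes, and Zfp385a, also called Hzf, binds RNA. Zfp423 held the most, with 1240.3 H3K27me3 tags in PD-L1 high cells, 924 in all IFN-gamma treated cells and 730.4 in untreated cells, and 22.3, 8.94 and 25.9 tags of H3K4me3 in the same order. Zfp385a held 919 tags in PD-L1 high cells, 793 in all IFN-gamma treated cells and 658 in untreated cells. Zfp811 held 745 tags in PD-L1 high cells, 662 in all IFN-gamma treated cells and 549 in untreated cells. In each of these genes PD-L1 high cells gave the highest value and untreated cells the lowest. H3K27me3 summed over all windows had the same order, at 2.12e+06, 2.00e+06 and 1.65e+06 tags in PD-L1 high, all IFN-gamma treated and untreated cells. No shift between libraries is removed from these values. The lowest means inside the threshold of 166 tags were 219 at Zfp521 and 199 at Zfp185, and the nearest outside were Zfp92 with 141 and Zfp469 with 136. H3K4me3 at or above the median window was found at 4 of the 10, namely Zfp385a, Zfp385c, Zfp593 and Zfp580.

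At Zfp593 both marks were high in 1 window, with 356 H3K4me3 tags in PD-L1 high cells, 343 in all IFN-gamma treated cells and 314 in untreated cells, and 437, 378 and 306 tags of H3K27me3 in the same order. Zfp580 showed the same pairing, with 211, 165 and 172 H3K4me3 tags and 436, 340.4 and 258 H3K27me3 tags in that order. The PRC1 mark followed in part: by the mean over states the 2 highest Zfp genes for H2A119Ub were Zfp385a, with 261 tags in PD-L1 high cells, 238 in all IFN-gamma treated cells and 213 in untreated cells, and its paralogue Zfp385c, with 206, 196 and 219.7 tags in the same order. Next by that mean came Zfp469, a gene of connective tissue and cornea that was above Zfp385c in both IFN-gamma states, with 208, 236 and 130.2 H2A119Ub tags and 108, 160.1 and 141 H3K27me3 tags in that order, which is outside the top 10% for H3K27me3. Zfp385b, another paralogue, had 85.0, 70.9 and 70.6 H3K27me3 tags and 0, 0.99 and 2.99 H3K4me3 tags in that order.

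**Figure D2:**
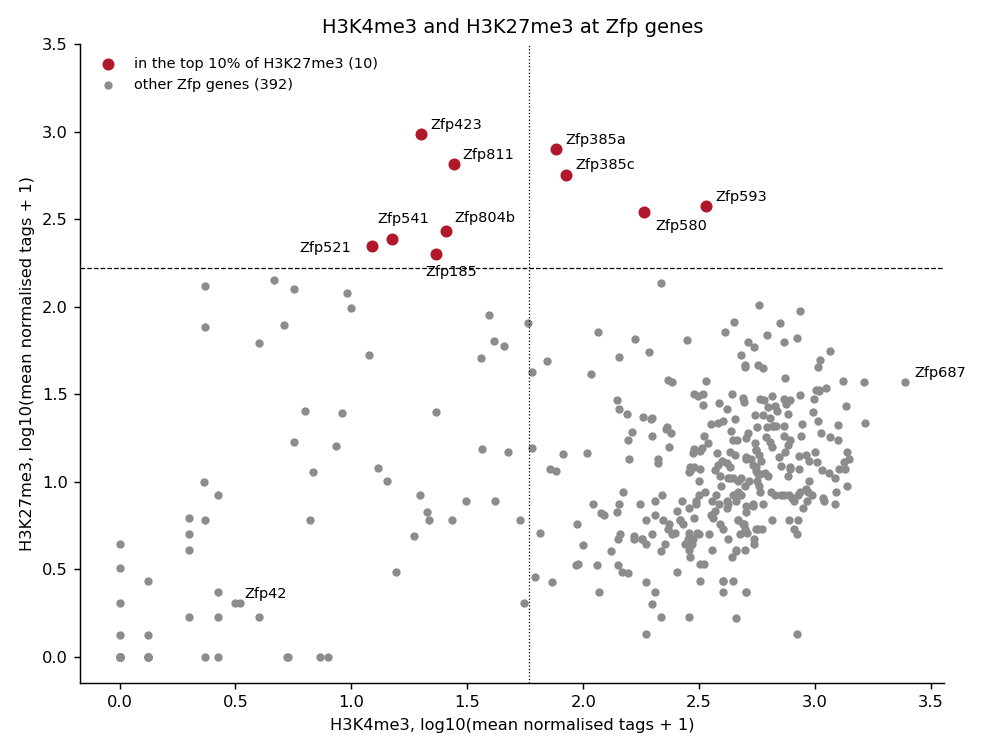
Mean H3K4me3 (horizontal axis) against mean H3K27me3 (vertical axis) over the 3 states at 402 Zfp genes, both as log10 of normalised tags plus 1, with the median window for H3K4me3 as a dotted line and the top 10% of H3K27me3 as a dashed line. The 10 genes above the dashed line are shown in red, and 4 of them lie to the right of the dotted line.

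Zfp genes are known to cluster, and 182 of the 399 placed genes lay in 18 runs of at least 5 in which neighbouring starts were at most 500000 bp apart. The other 217 lay outside such runs. Chromosome 7 held 93 windows, chromosome 17 held 46 and chromosome 13 held 38. H3K4me3 was at or above the median window in 155 of 182 clustered genes (85.2%) and 172 of 217 others (79.3%), with medians of 330 and 381 tags. The clustered genes included fewer of the strongest windows, with 10 (5.49%) in the top 10% against 27 (12.4%) outside. For H3K27me3 the medians were 6.93 tags in clusters and 11.1 outside, for H2A119Ub 29.9 and 41.0, and for H3K27Ac 65.4 and 88.1. Of the 10 genes in the top 10% of H3K27me3, 2 were in clusters, Zfp811 and Zfp580.

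Cluster medians of H3K4me3 ranged from 0.33 to 609 tags. On chromosome 7, the run from Zfp553 to Zfp646 had a median of 609 H3K4me3 tags over 10 genes (239 to 1089), all at or above the median window. The run from Zfp84 to Zfp146, with 15 genes, had a median of 492 tags (186 to 943), again with all genes at or above it, while its H3K27me3 median was 4.39 tags and none of its genes reached the median window for that mark. On chromosome 17 all 23 genes from Zfp160 to Zfp13 reached the median window for H3K4me3, with a median of 401 tags (103 to 1069.8). On chromosome 13 the run from Zfp712 to Zfp273 had a median of 273 tags over 24 genes, of which 22 reached the median window. Its Zfp708 was an exception inside an active run, with 4.95 tags in PD-L1 high cells, 0.99 in all IFN-gamma treated cells and 6.97 in untreated cells.

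Neighbours could also differ sharply. In the run from Zfp787 to Zfp28 on chromosome 7, Zfp78 had 766 H3K4me3 tags in PD-L1 high cells, 763 in all IFN-gamma treated cells and 812 in untreated cells. Its neighbour Zfp583 had 9.89 tags in PD-L1 high cells, 13.4 in all IFN-gamma treated cells and 12.9 in untreated cells. The genes of this pair stood apart in every library. In the run from Zfp871 to Zfp414 on chromosome 17, Zfp472 had 1235, 1165 and 1087 H3K4me3 tags and Zfp811 had 18.8, 23.3 and 37.8 in the same order, while Zfp811 had the H3K27me3 given above.

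The low end was formed by a pair of chromosome 4 runs and by single genes. The run from Zfp990 to Zfp981 had a median of 0.33 H3K4me3 tags over 6 genes and a highest gene, Zfp992, at a mean of 2.98 tags. That from Zfp991 to Zfp933 had a median of 0.997 over 7 genes, although Zfp933 had 296 tags in PD-L1 high cells, 198 in all IFN-gamma treated cells and 263 in untreated cells. All 4 marks were low in both runs, the medians being 3.55 and 6.75 tags in H3K27Ac, 0.845 and 1.35 in H3K27me3 and 3.42 and 4.88 in H2A119Ub. A count of 0 allows up to about 3 tags per library, and 3.95 in H2A119Ub of all IFN-gamma treated cells. In all 12 libraries 6 genes were at 0: Zfp965, Zfp966, Zfp967, Zfp968 and Zfp973 on chromosome 2 and Zfp991 on chromosome 4. That is 1.49% of Zfp windows against 1.41% of all windows. Zfp genes of 1 cluster can be near-identical in sequence. The handling of reads that map to several places is not given in the sources used here. Its part in these zeros, and in the low values of both chromosome 4 runs, was not tested.

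**Figure D3:**
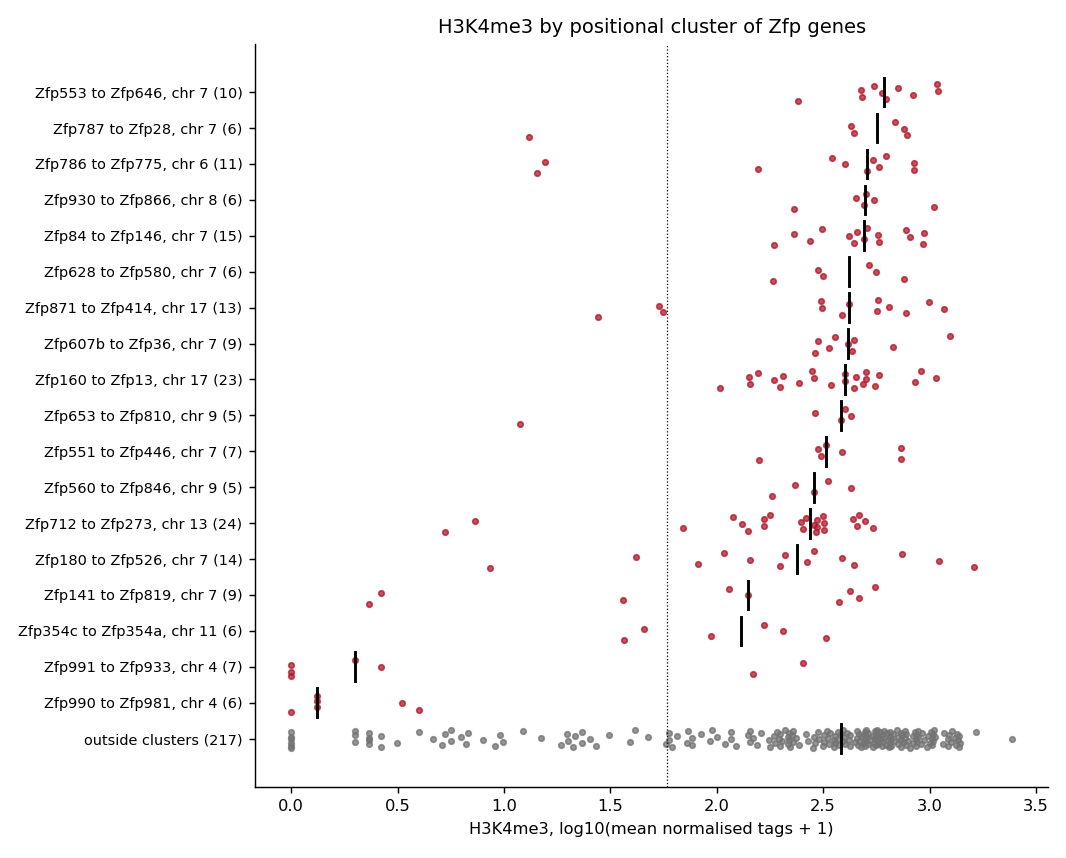
Mean H3K4me3 over the 3 states (horizontal axis, log10 of normalised tags plus 1) for each Zfp gene, with 1 row per positional cluster and the number of genes in brackets, and genes outside clusters in the lowest row. Black ticks are row medians and the dotted line is the median window, and the chromosome 4 runs at 0.997 and 0.33 tags lie far to the left of the other clusters.

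The promoter table held 329 of the 402 names. By CpG content, taken as rich at an observed over expected ratio of at least 0.6 with at least 50% GC in 300 bases, 164 of 329 Zfp promoters (49.8%) were rich, against 47.3% of 18651 genes. At CpG-rich promoters the H3K4me3 of Zfp genes was like that of other genes, with a median of 494 tags against 527 over all genes. At CpG-poor promoters it was not: 165 Zfp genes had a median of 239 tags, against 7.45 over 9831 genes, and 74.5% against 24.9% reached the median window. H3K27Ac followed, at 48.6 tags for CpG-poor Zfp genes against 16.6 for all CpG-poor genes.

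The same held in narrower bins and against protein-coding genes only. Below a CpG ratio of 0.2, the median was 179 H3K4me3 tags over 12 Zfp genes against 2.32 over 3257 other coding genes, and between 0.2 and 0.4 it was 125 over 48 Zfp genes against 7.95 over 2468. From 0.4 to 0.6 the medians were 285 over 82 and 63.0 over 1980 genes. Above 0.6 the medians lay closer, with 428 against 407 tags up to 0.8, 494 against 561 up to 1, and 580 against 633 from 1. Of the 329 genes, 32 (9.73%) had another gene's start within 3000 bp of their own, and the H3K4me3 of such windows can come from either gene.

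**Figure D4:**
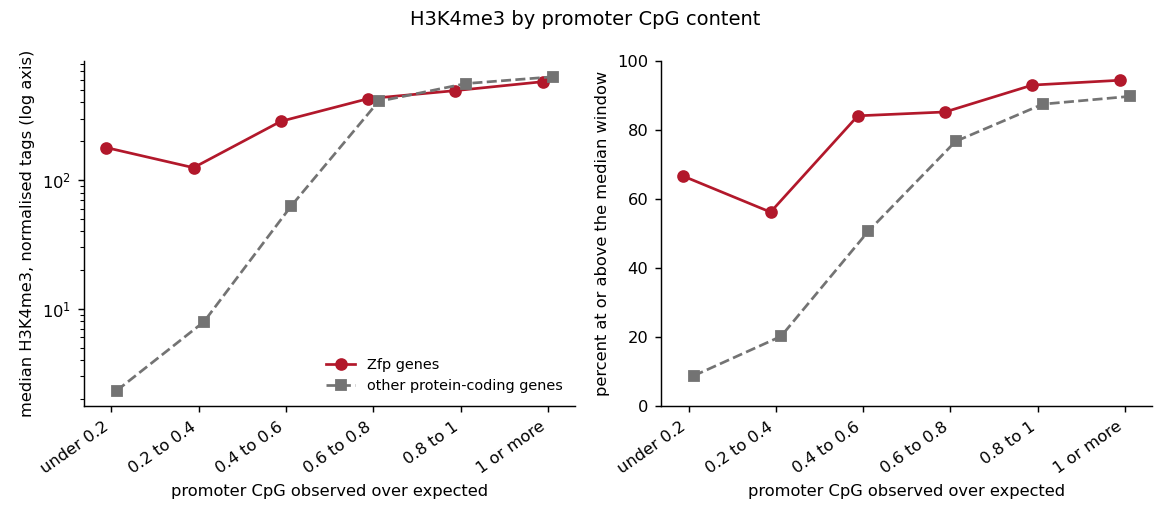
Median H3K4me3 in normalised tags (left, log axis) and percent of genes at or above the median window (right) by promoter CpG observed over expected, for Zfp genes (red circles, solid) and other protein-coding genes (grey squares, dashed). In the lowest bin the medians are 179 tags for Zfp genes and 2.32 for other coding genes, and in the bin from 0.8 to 1 they are 494 and 561.

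Letters that recur in Zfp promoters were then searched on both strands in the 300 bases around each start, in 327 protein-coding Zfp genes and 16287 other protein-coding genes. ACTACANTTCC, the run shown above, was in 48 Zfp promoters (14.7%) against 207 others (1.27%). Of all patterns of 6 letters, 1 free position and 4 letters it was the one with the greatest excess of share in Zfp promoters over others, so these shares chose it and are given as a description. The letters resemble a sequence known to be bound by human ZNF143, the homologue of Zfp143. The run shown for each gene continues with a C after the capitals. Matches were unevenly spread, with 14 of 20 promoters in the Zfp712 to Zfp273 cluster, 10 of 14 in Zfp84 to Zfp146, 7 of 11 in Zfp180 to Zfp526 and 4 of 4 in Zfp354c to Zfp354a, against 8 of 169 outside clusters. Several other clusters held no match, among them Zfp160 to Zfp13 with 0 of 21 promoters and Zfp871 to Zfp414 with 0 of 12. Genes of 1 cluster descend from shared ancestors and are not independent.

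The H3K4me3 median was 303 tags over 48 genes with these letters and 376 over 279 without, while 45 of 48 (93.8%) and 224 of 279 (80.3%) reached the median window. GAGTGACA, chosen after the promoters had been read, was in 36 Zfp promoters (11.01%) against 1.55% of others, 25 of them outside clusters, and no promoter held both runs. With GAGTGACA the median was 215 tags over 36 genes, and without it 376 over 291. The 36 include Zfp965, Zfp966, Zfp967, Zfp968 and Zfp973 on chromosome 2, which had no tags counted in any library. The part of reads that map to several places in this lower median was not tested. Others of the 36 also lie on chromosome 2, such as Zfp970 and Zfp971. Shared ancestry among these genes was not tested, and they may not be independent. TATAAA was in 6.08% of 329 Zfp promoters against 12.7% of all genes and CGCG in 59.0% against 51.1%. A match is a description of letters and not of binding.

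Between cell states, log2 ratios were taken over the kept windows of a mark, whose mean reached its median window, after subtracting their median ratio, and 2-fold was the threshold for a difference. Centring removed shifts of 0.23, 0.24, 0.22 and 0.24 for H3K4me3, H3K27Ac, H3K27me3 and H2A119Ub in all IFN-gamma treated over untreated cells, 0.31, 0.20, -0.13 and 0.09 in PD-L1 high against untreated cells, and 0.07, -0.05, -0.26 and -0.14 in PD-L1 high against all IFN-gamma treated cells. The contrasts share libraries and are not independent. Intervals given with single ratios cover counting error in the 2 libraries only, at 95%. A small number, the pseudocount, was added to both values for the ratios but not for the intervals. A ratio therefore need not lie at the middle of its interval.

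H3K4me3 at Zfp windows differed little between states. Of 328 windows kept, 0 were past 2-fold higher and 4 past 2-fold lower in all IFN-gamma treated over untreated cells, against 0.361% and 1.03% of all kept windows. In PD-L1 high over untreated cells the counts were 0 and 1, against 0.47% and 2.09%, and in PD-L1 high against all IFN-gamma treated cells 0 and 0, against 0.00784% and 0.0784%. Medians were -0.09, -0.06 and 0.01 in the same order. Without centring the first and second were positive, at 0.15 and 0.25, below the medians of all kept windows, 0.23 and 0.31. They were also positive, at 0.10 and 0.17, with windows of every level, a setting that changes the subtracted shift as well as the windows. No direction is given for the family.

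Single genes differed by more. Among windows kept, Zfp36 had the highest H3K4me3 ratio in all IFN-gamma treated over untreated cells, at 0.66 (0.54 to 0.79). It had 0.47 (0.35 to 0.60) in PD-L1 high against untreated cells. Zfp809, which silences integrated retroviruses in mouse embryonic stem cells, had 456 H3K4me3 tags in PD-L1 high cells, 527 in all IFN-gamma treated cells and 301 in untreated cells, a ratio of 0.57 (0.37 to 0.79) in all IFN-gamma treated over untreated cells. Zfp281, a regulator of pluripotency genes, had 718 tags in PD-L1 high cells, 703 in all IFN-gamma treated cells and 407 in untreated cells. Its ratios were 0.55 (0.38 to 0.73) in all IFN-gamma treated and 0.51 (0.33 to 0.69) in PD-L1 high against untreated cells. The highest among windows kept in PD-L1 high against untreated cells was Zfp560, at 0.60 (0.33 to 0.90). It had 306 tags in PD-L1 high cells, 230.4 in all IFN-gamma treated cells and 161 in untreated cells. None of these 4 genes reached 2-fold after centring.

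Among windows kept, the 4 genes past 2-fold lower in all IFN-gamma treated over untreated cells were Zfp937, Zfp772, Zfp354a and Zfp385c. Zfp937 had 196 H3K4me3 tags in PD-L1 high cells, 137 in all IFN-gamma treated cells and 258 in untreated cells, a ratio of -1.14 (-1.45 to -0.84). Zfp772 had 121 tags in PD-L1 high cells, 78.5 in all IFN-gamma treated cells and 148 in untreated cells, a ratio of -1.14 (-1.56 to -0.75). For both, PD-L1 high cells lay between the other states. Zfp354a, known as Kid-1 from kidney, had 80.1 tags in PD-L1 high cells, 69.5 in all IFN-gamma treated cells and 129 in untreated cells, a ratio of -1.11 (-1.57 to -0.70). Zfp385c had 49.5 tags in PD-L1 high cells, 73.5 in all IFN-gamma treated cells and 127 in untreated cells, with ratios of -1.01 (-1.46 to -0.60) in all IFN-gamma treated and -1.64 (-2.18 to -1.19) in PD-L1 high against untreated cells, and was the gene past 2-fold in PD-L1 high against untreated cells. None of the 4 stayed past 2-fold in all IFN-gamma treated over untreated cells without centring, under quantile normalization, or when windows were centred within bins of level.

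H3K27Ac gave few differences too. Of 275 windows kept, 0 were at least 2-fold higher and 2 lower in all IFN-gamma treated over untreated cells, against 0.251% and 0.643% of all kept windows. The counts were 2 and 1 in PD-L1 high against untreated cells, against 0.392% and 1.77%, and 0 and 0 in PD-L1 high against all IFN-gamma treated cells, against 0.0784% and 0.196%. Medians were 0.01, 0.03 and 0.03. Zfp853 was lower in both IFN-gamma states, with 34.9 H3K27Ac tags in PD-L1 high cells, 40.5 in all IFN-gamma treated cells and 78.1 in untreated cells, and ratios of -1.11 (-1.77 to -0.62) in all IFN-gamma treated and -1.26 (-1.99 to -0.77) in PD-L1 high against untreated cells. Zfp354b, from the cluster of Zfp354a, had 48.6 tags in PD-L1 high cells, 34.9 in all IFN-gamma treated cells and 68.5 in untreated cells, a ratio of -1.12 (-1.85 to -0.60) in all IFN-gamma treated over untreated cells. In the opposite direction, Zfp382 had 135 tags in PD-L1 high cells, 109 in all IFN-gamma treated cells and 53.8 in untreated cells, and Zfp317 had 97.2, 82.0 and 38.5 tags in the same order. Their ratios in PD-L1 high against untreated cells were 1.05 (0.65 to 1.61) and 1.03 (0.58 to 1.71). With a pseudocount 3 times larger these were 0.93 and 0.88, short of 2-fold. The lower count in all IFN-gamma treated over untreated cells was 0 without centring, with quantile normalization, with the larger pseudocount and with centring in bins of level, and Zfp853 in PD-L1 high against untreated cells was short of 2-fold, at -0.96, with the bins.

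**Figure D5:**
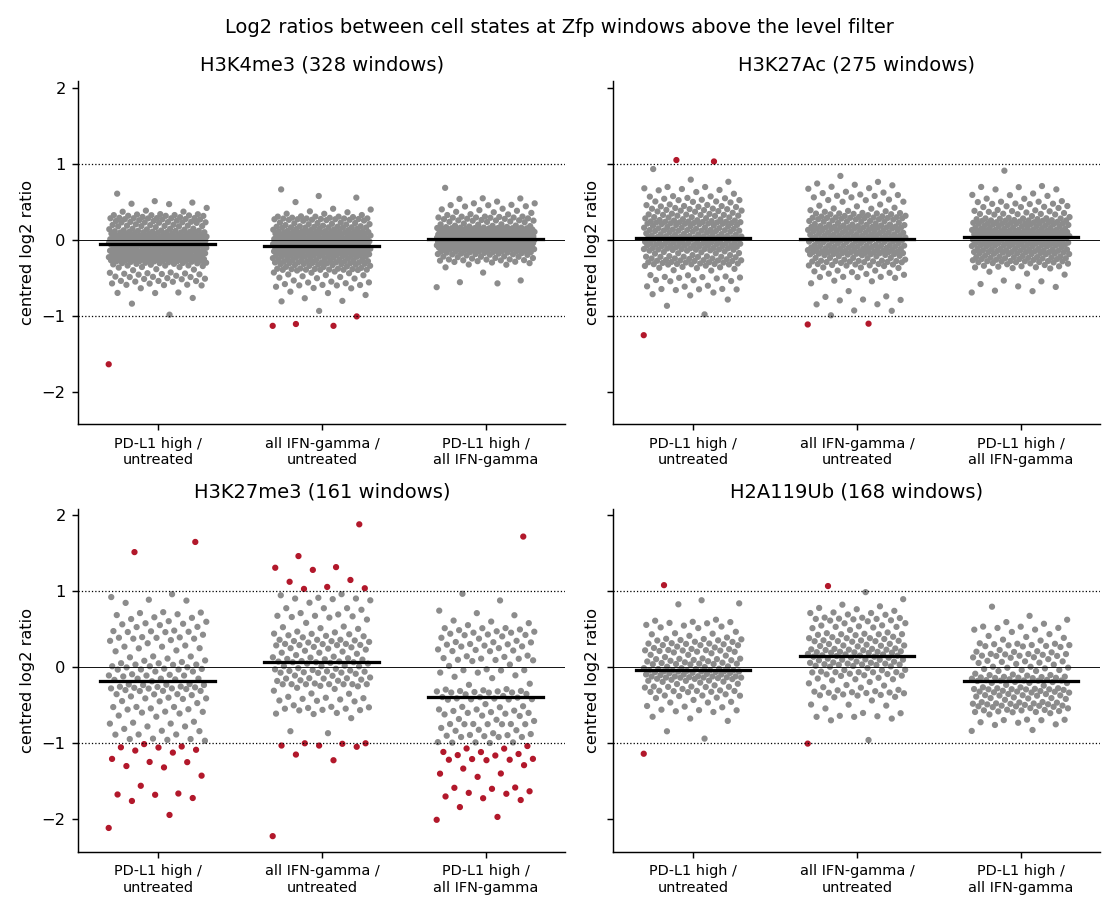
Centred log2 ratios (vertical axis) of Zfp windows at or above the median window of each mark, for PD-L1 high over untreated, all IFN-gamma treated over untreated and PD-L1 high against all IFN-gamma treated cells, with 1 point per window, black bars for medians, dotted lines at 2-fold and red points past it. H3K4me3, H3K27Ac and H2A119Ub have 0 to 4 red points per column and direction, while H3K27me3 has up to 30.

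H3K27me3 showed the widest spread, at windows with few tags. Of 161 windows kept, 10 were at least 2-fold higher and 9 lower in all IFN-gamma treated over untreated cells, against 3.79% and 4.51% of all kept windows, which is 6.21% and 5.59% of the Zfp windows. In PD-L1 high over untreated cells the counts were 2 (1.24%) and 21 (13.04%), against 2.54% and 8.88%. In PD-L1 high against all IFN-gamma treated cells they were 1 (0.621%) and 30 (18.6%), against 1.37% and 12.6%. The medians were 0.07, -0.18 and -0.39. They depended on level: centred within 20 bins of mean level, the second was 0.003 and the third -0.09, and quantile normalization gave 0.03 and -0.12. Counts depended on it too. Lower counts in PD-L1 high against untreated cells were 10 with the level bins and 9 with quantile normalization. In PD-L1 high against all IFN-gamma treated cells they were 16 and 15, and 55 without centring.

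The low windows and the Polycomb-rich windows differed in direction, as they did in the table as a whole. All 10 Zfp genes in the top 10% had more H3K27me3 in PD-L1 high against untreated cells, with ratios of 0.27 to 0.89 and a median of 0.62. Over all 2551 windows in the top 10% the median was 0.61 and 95.9% were above 0, so the Zfp genes did as such windows did. In PD-L1 high against all IFN-gamma treated cells the median was 0.47 over the 10 genes and 0.45 over the 2551 windows. In all IFN-gamma treated over untreated cells the 2 medians were 0.07 and 0.08. Zfp423 had the largest ratio in PD-L1 high against untreated cells among the 10, 0.89 (0.76 to 1.03), with H2A119Ub in the same direction at 0.83 (0.50 to 1.29) and 170.2 H2A119Ub tags in PD-L1 high cells, 124 in all IFN-gamma treated cells and 86.5 in untreated cells.

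Several of the named H3K27me3 differences rest on small values. Zfp821 had 27.2 H3K27me3 tags in PD-L1 high cells, 41.5 in all IFN-gamma treated cells and 8.13 in untreated cells, with ratios of 1.88 (1.02 to 3.44) in all IFN-gamma treated and 1.65 (0.69 to 3.22) in PD-L1 high against untreated cells. Zfp142 had 15.6 tags in PD-L1 high cells, 35.5 in all IFN-gamma treated cells and 9.65 in untreated cells, a ratio of 1.46 (0.59 to 2.87) in all IFN-gamma treated over untreated cells. The all IFN-gamma library was the highest for both. Zfp36 was also highest there, with 9.05, 30.4 and 9.14 tags in PD-L1 high, all IFN-gamma treated and untreated cells, at a promoter whose H3K4me3 was also highest in all IFN-gamma treated cells. Zfp267 and Zfp638 had larger counts, at 66.9, 154 and 58.4 and 45.8, 104 and 35.6 tags in the same order, and ratios of 1.15 (0.73 to 1.64) and 1.28 (0.77 to 1.93) in all IFN-gamma treated over untreated cells. Both were chosen for their counts after their values were seen. In the other direction, Zfp114 had 16.1 tags in PD-L1 high cells, 4.56 in all IFN-gamma treated cells and 24.4 in untreated cells, a ratio of -2.22 (-4.49 to -1.16) in all IFN-gamma treated over untreated cells, and its H3K4me3, at 9.89, 2.98 and 9.96 tags in the same order, was below the median window.

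PD-L1 high cells gave the lowest H3K27me3 at several active promoters. The median over all windows was also lowest there, at 9.05 tags against 15.2 in all IFN-gamma treated and 14.2 in untreated cells. Zfp445, Zfp28, Zfp52 and Zfp524 are named because they had the lowest ratios of a contrast among windows kept. Zfp445 had 3.02 H3K27me3 tags in PD-L1 high cells, 16.7 in all IFN-gamma treated cells and 21.8 in untreated cells. Its ratio was -2.11 (-5.11 to -0.99) in PD-L1 high against untreated cells, the lowest among Zfp windows kept in that contrast. Zfp28 had 4.02 tags in PD-L1 high cells, 14.2 in all IFN-gamma treated cells and 23.4 in untreated cells, a ratio of -1.94 (-4.41 to -0.86). Zfp52 had 3.02 tags in PD-L1 high cells, 22.3 in all IFN-gamma treated cells and 14.2 in untreated cells, a ratio of -2.01 (-5.01 to -0.89) in PD-L1 high against all IFN-gamma treated cells. All 3 PD-L1 high values were close to the limit of 3 tags that a count of 0 allows. Zfp524 had 7.04 tags in PD-L1 high cells, 40.5 in all IFN-gamma treated cells and 22.4 in untreated cells, a ratio of -1.97 (-3.67 to -1.09) in the same contrast, and Zfp335 had 5.53, 30.4 and 24.4 tags in the same order of states. H3K4me3 at these 5 genes differed by less than 2-fold in every contrast.

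H2A119Ub gave few differences past 2-fold. Of 168 windows kept, 1 was at least 2-fold higher and 1 lower in all IFN-gamma treated over untreated cells, against 0.408% and 0.894% of all kept windows. It was again 1 and 1 in PD-L1 high against untreated cells, against 0.227% and 0.306%, and 0 and 0 in PD-L1 high against all IFN-gamma treated cells, against 0.361% and 0.517%. The medians were 0.15, -0.04 and -0.17, and the library entering the first and last of these is the one where a single tag counted as 1.32. Zfp719 was the gene past 2-fold higher, with 47.5 H2A119Ub tags in PD-L1 high cells, 93.6 in all IFN-gamma treated cells and 32.9 in untreated cells, a ratio of 1.07 (0.65 to 1.92). Zfp750, known for driving epidermal differentiation, was the one lower, with 33.2 tags in PD-L1 high cells, 33.0 in all IFN-gamma treated cells and 61.8 in untreated cells, a ratio of -1.004 (-1.88 to -0.45). In PD-L1 high over untreated cells Zfp518b was higher, with 77.2 tags in PD-L1 high cells, 56.7 in all IFN-gamma treated cells and 29.8 in untreated cells, a ratio of 1.08 (0.65 to 1.96). Zfp184 was lower, with 25.6 tags in PD-L1 high cells, 43.5 in all IFN-gamma treated cells and 61.8 in untreated cells, a ratio of -1.14 (-2.09 to -0.66). All 4 genes were short of 2-fold with a pseudocount 3 times larger, at 0.84, -0.79, 0.83 and -0.86 in the order given, and Zfp750 also without centring, at -0.77, with quantile normalization and with bins of level, at -0.94 in both, and with windows of every level, at -0.90.

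The partners through which KRAB proteins act were marked as active promoters. Over 19 windows that include Trim28, Setdb1, the heterochromatin proteins and their cofactors, the median was 681 H3K4me3 tags. This list also holds Zfp57, itself a Zfp window. Of the 19, 18 reached the median window, the exception being Dnmt1. None passed 2-fold in H3K4me3, H3K27Ac or H2A119Ub among windows kept. Trim28 had 1099 H3K4me3 tags in PD-L1 high cells, 1088 in all IFN-gamma treated cells and 1011 in untreated cells, and Setdb1 had 409.6, 349 and 303 in the same order. In H3K27me3, 2 of the 8 partner windows kept were past 2-fold higher in all IFN-gamma treated over untreated cells, against 3.79% of all kept windows, and 2 were lower in PD-L1 high against all IFN-gamma treated cells, against 12.6%.

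Other Zfp genes of known or studied roles had H3K4me3 as follows, in PD-L1 high, all IFN-gamma treated and untreated cells. Zfp148, a GC-box binding factor also called ZBP-89, had 894, 849 and 758 tags. Zfp217, whose human counterpart is an oncogene, had 66.3, 50.6 and 65.2 tags, and Zfp281 is given above. Zfp462 had 939, 904 and 731, Zfp827 1413, 1393 and 999 and Zfp219 747, 857 and 593 tags. Zfp318 had 689, 643 and 456, Zfp652 9.89, 17.9 and 33.9 and Zfp692 294, 274 and 287 tags. Zfp521, listed above for H3K27me3, had 2.97, 9.93 and 20.9 H3K4me3 tags, and Zfp750 had 11.4, 17.9 and 23.4.

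In PD-L1 high against all IFN-gamma treated cells, no Zfp window kept passed 2-fold in H3K4me3, H3K27Ac or H2A119Ub. Among the windows kept, the ratios farthest from 0 were these. For H3K4me3 they were 0.68 (0.38 to 1.001) at Zfp229, with 236 tags in PD-L1 high cells, 139 in all IFN-gamma treated cells and 180.2 in untreated cells, and -0.63 (-1.19 to -0.11) at Zfp385c. For H3K27Ac they were 0.91 (0.37 to 1.65) at Zfp518a, with 64.8 tags in PD-L1 high cells, 33.4 in all IFN-gamma treated cells and 51.7 in untreated cells, and -0.70 (-1.08 to -0.37) at Zfp28. For H2A119Ub they were 0.80 (0.22 to 1.67) at Zfp957, with 56.7 tags in PD-L1 high cells, 33.0 in all IFN-gamma treated cells and 48.4 in untreated cells, and -0.84 (-1.60 to -0.38) at Zfp90. The 1 kept window past 2-fold higher in H3K27me3 was Zfp114, at 1.72 (0.51 to 3.99). Its value was the lowest of the 3 states in all IFN-gamma treated cells.

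Set beside other gene families of zinc finger proteins and the RING-finger Trim family, the Zfp windows were intermediate in H3K4me3. The median was 357 tags over 403 Zfp windows, 695 over 42 Zbtb, 774 over 17 Klf, 187 over 17 Zscan, 180.1 over 12 Zkscan and 61.3 over 68 Trim windows. The shares at or above the median window were 81.4% for Zfp, 88.1% for Zbtb, 70.6% for Klf, 58.8% for Zscan, 91.7% for Zkscan and 51.5% for Trim. In H3K27me3, 39.95% of Zfp windows reached the median window, against 54.8% of Zbtb, 64.7% of Klf, 35.3% of Zscan, 41.7% of Zkscan and 50% of Trim windows. The top 10% of H3K27Ac held 7.69% of Zfp windows, against 26.2% of Zbtb and 52.9% of Klf windows. These differences between families were not tested.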

How the data were processed

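CUT&Tag signal was taken from the deposited table of 12 libraries, 1 per mark and state. Per the submitters' processing notes, the authors used Bowtie2 2.4.2, MACS2 2.2.7.1, HOMER and mm10; the role of each tool, window placement, scaling and the treatment of duplicate or multi-mapped reads were not stated. The deposited signal was multiplied by 6000 to give normalised tags, since the values step by whole tags and by 0.5 of a tag; the window length is inferred from those steps. Windows whose mean of 3 libraries was at least the median window were kept, pseudocounts of 1.99 (H3K4me3), 5.06 (H3K27Ac), 2.03 (H3K27me3) and 8.18 tags (H2A119Ub) were added, and log2 ratios were centred on the median kept window. With 1 library per group no test was possible. Intervals are exact 95% binomial ones for recovered tags; tags carry no molecular identifiers, and intervals and limits of 0 therefore cover counting error only. The script was checked on simulated data. Genes named are, per mark and contrast, the 2 highest and 2 lowest ratios, per mark the 3 highest levels, the cluster extremes and a list of genes with known roles; Zfp36l3, Zfp143, Zfp217, Zfp267, Zfp385b, Zfp503, Zfp580, Zfp593, Zfp638 and Zfp710 were added after their values were seen, and not every gene of the rule is printed. The members and lists were chosen with earlier results of these data known. Domain classes were not analysed here. Python 3.11.15, numpy 2.4.6, pandas 2.3.3, scipy 1.17.1 and matplotlib 3.10.9 were used.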

Additional observations from a re-analysis of the deposited data

How the results depend on the processing

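Contrasts are written here as IFN (all IFN-gamma treated over untreated cells), high (PD-L1 high over untreated cells) and high over IFN. Medians are log2 ratios of Zfp windows and counts are Zfp windows past 2-fold. Without centring, the H3K4me3 medians turned positive, at 0.15 for IFN and 0.25 for high, and high over IFN was 0.084. The H3K27Ac medians were then 0.25, 0.23 and -0.016, those of H3K27me3 0.29, -0.31 and -0.65, and those of H2A119Ub 0.39 for IFN and -0.31 for high over IFN. Counts for IFN were then 7 higher and 0 lower for H2A119Ub, 1 and 0 for H3K27Ac, 18 and 2 for H3K27me3 and 0 lower for H3K4me3, with 55 lower for H3K27me3 in high over IFN.

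With windows of every level, H3K4me3 medians were 0.10 for IFN, 0.17 for high and 0.069 for high over IFN, the first and second positive. This setting also changes the shift subtracted, which then comes from all windows, so it is no separate alternative to centring: the H3K4me3 ratio of Zfp937 in IFN was -0.90 both here and without centring. H3K27Ac gave 0.071 for IFN and 0.12 for high, H3K27me3 gave -0.30 and H2A119Ub -0.12 for high over IFN. Higher and lower counts were 2 and 18 (IFN), 2 and 21 (high) and 6 and 6 (high over IFN) for H3K4me3, and 2 and 11 (IFN), 8 lower (high) and 8 higher (high over IFN) for H3K27Ac. They were 43 and 47, 22 and 71, and 19 and 71 for H3K27me3, and 3 and 6 (IFN), 3 lower (high) and 1 and 1 (high over IFN) for H2A119Ub. Low windows have few tags, and these counts rest on them.

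Quantile normalization turned the H3K27me3 median for high to 0.026 and gave -0.12 for high over IFN and -0.051 for H3K4me3 in IFN. Higher counts were 2 for H2A119Ub and 1 for H3K27Ac in IFN, 5 for H3K27me3 and 1 for H3K4me3 in high, and 3 for H3K27me3 in high over IFN. Lower counts in IFN were 0 for H2A119Ub, H3K27Ac and H3K4me3 and 4 for H3K27me3, which had 9 in high and 15 in high over IFN. Centring within 20 bins of level, added after seeing the data, turned the same H3K27me3 median to 0.00307, with -0.093 for high over IFN and -0.045 for H3K4me3 in IFN. Higher counts were 2 for H2A119Ub in IFN, 7 for H3K27me3 and 1 for H3K4me3 in high, and 5 for H3K27me3 in high over IFN. Lower counts were 0 for H3K27Ac and H3K4me3 in both IFN and high, and 10 and 16 for H3K27me3 in high and high over IFN.

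A pseudocount 10 times smaller gave 4 higher and 2 lower (IFN) and 3 higher and 2 lower (high) for H2A119Ub, 2 lower for H3K27Ac and for H3K4me3 in high, and 2 higher for H3K27me3 in high over IFN. One 3 times larger gave 0 higher and 0 lower for H2A119Ub in IFN and high, 0 lower in IFN and 0 higher in high for H3K27Ac, and 3 lower in IFN and 12 lower in high for H3K27me3. The cause of these differences was not tested. Shares at or above the median window lay inside their main 95% intervals in each alternative. With gaps of at most 250000 bp, 150 genes lay in 16 clusters. Of the ratios of single named genes, 12 lay outside their main counting interval, 276 inside, and none past 2-fold changed sign, though ratios inside it could lose 2-fold. The domain classes were not run because no protein table was given. No paired analysis was possible because each group holds 1 library per mark, so no replicate could be left out either.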
